A study of Mus musculus with 15 samples.

Results

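A set of 40 antiviral genes induced by type I interferon was followed across *Pbrm1* knockout and control kidney tumors of the mouse. The 40 genes were picked by symbol, by a rule that uses no measured value but was set with earlier results of these data known, from the 18279 genes of the deposited table, and all 40 were present, above 0 in every tumor and tested. RNA of 15 bulk tumors was sequenced, 5 from control cells (tumors 1 to 5), 5 from *Pbrm1* KO clone 4 (tumors 6 to 10) and 5 from *Pbrm1* KO clone 18 (tumors 11 to 15). Each tumor grew under the skin of a female BALB/c mouse, bought at 4 to 6 weeks of age, from injected Renca cells, a mouse renal carcinoma line that arose in the BALB/c strain. The study asked how loss of *Pbrm1*, a subunit of the PBAF chromatin remodeling complex, bears on interferon signaling and the tumor immune environment. The sample labels call the controls tumors of parental Renca cells, while the series text and the study's methods call them control knockout cells, which received a control CRISPR/Cas9 plasmid. The knockout cells received *Pbrm1* CRISPR/Cas9 plasmids and a repair plasmid that carries puromycin resistance and a red fluorescent protein. Transfected cells were selected in puromycin, and single knockout clones were sorted. The methods name no repair plasmid for the control cells. Every group is thus 1 cell line, and the effect of the genotype cannot be told apart from other differences between the lines. The protocol names mice left untreated and mice given a PD-1 antibody, and the sources used here do not say which of them these tumors came from. Mice were killed when tumors reached 1000 mm3 or for ulceration or distress.

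Type I interferons are cytokines that cells release when sensors in the endosome or cytosol recognize foreign nucleic acid. They bind the receptor IFNAR1-IFNAR2, whose kinases JAK1 and TYK2 set off the assembly of the complex ISGF3. Its DNA-binding part is IRF9, and it binds interferon-stimulated response elements in front of the target genes. The target genes encode nucleic acid sensors, RNA-binding and RNA-degrading proteins, membrane restriction factors and feedback regulators. In tumors the same program can run in cancer cells, macrophages, dendritic cells and stromal cells, and bulk RNA adds all of them together, so that fewer cells of a type and less RNA per cell cannot be told apart.

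The promoters shown here are those of *Ifit3*, the member with the lowest adjusted p, of its near-copy *Ifit3b*, of the neighboring *Ifit1*, which did not pass the threshold, and of *Isg15*, a much used marker of the interferon response. They are the 250 bases before the transcription start in RefSeq on GRCm38.p6, the patch release of the build mm10, written 5′ to 3′ in the direction of transcription. Capitals mark matches to GAAANNGAAA, a short form of the interferon-stimulated response element, or to its reverse complement TTTCNNTTTC. The regions are chr19:34583279-34583528 on the plus strand for *Ifit3*, chr19:34607707-34607956 on the plus strand for *Ifit3b*, chr19:34640639-34640888 on the plus strand for *Ifit1* and chr4:156200819-156201068 on the minus strand for *Isg15*.
Ifit3: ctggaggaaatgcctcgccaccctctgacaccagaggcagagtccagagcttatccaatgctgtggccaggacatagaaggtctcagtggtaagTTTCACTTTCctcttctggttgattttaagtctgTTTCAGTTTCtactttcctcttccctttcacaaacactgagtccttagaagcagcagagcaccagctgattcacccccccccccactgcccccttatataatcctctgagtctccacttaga
Ifit3b: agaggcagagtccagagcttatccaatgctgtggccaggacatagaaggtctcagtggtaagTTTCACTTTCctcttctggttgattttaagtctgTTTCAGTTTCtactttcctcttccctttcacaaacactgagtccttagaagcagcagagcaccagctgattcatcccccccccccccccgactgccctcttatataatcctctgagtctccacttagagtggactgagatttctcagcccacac
Ifit1: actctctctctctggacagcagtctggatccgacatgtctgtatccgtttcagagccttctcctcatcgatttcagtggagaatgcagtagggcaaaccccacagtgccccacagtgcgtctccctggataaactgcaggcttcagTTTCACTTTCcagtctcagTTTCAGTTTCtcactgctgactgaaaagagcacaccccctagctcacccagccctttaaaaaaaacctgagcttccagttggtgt
Isg15: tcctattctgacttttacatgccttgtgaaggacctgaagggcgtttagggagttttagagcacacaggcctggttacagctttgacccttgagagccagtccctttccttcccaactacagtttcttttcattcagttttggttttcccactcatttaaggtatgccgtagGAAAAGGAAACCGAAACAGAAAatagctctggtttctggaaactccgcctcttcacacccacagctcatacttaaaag

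Counted from the start base as 0, the matches began at -156 and -122 in *Ifit3*, at -188 and -154 in *Ifit3b* and at -104 and -85 in *Ifit1*. The *Ifit3* and *Ifit3b* windows held both matches within an identical run of 169 bases, 34 bases apart in each. In *Isg15* 3 overlapping matches began at -78, -72 and -66. *Ifitm3*, the member with the largest rise in clone 18, had its 2 matches just after the start, at 2 and 19, in the stretch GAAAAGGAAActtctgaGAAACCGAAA (chr7:141010716-141010742, minus strand). Of the 40 members, 30 had a RefSeq window of 300 bases, which runs to 50 bases after the start, and 12 of them (40%) held at least 1 match on either strand, against 3.99% of the 27025 genes with a window. These 12 were *Bst2*, *Ddx58*, *Eif2ak2*, *Ifih1*, *Ifit1*, *Ifit3*, *Ifitm3*, *Isg15*, *Oas1a*, *Oas3*, *Rsad2* and *Trim30a*. TTCNNNGAA, a short form of the gamma-activated site, lay in 7 of the 30 windows (23.3%), against 9.55% of all, and in *Ifitm3* it overlapped the second match. A match is a run of letters and not a shown binding site. Among the members past the threshold below, *Ifit3* and *Ifitm3* held GAAANNGAAA, whereas these letters were not in the windows of *Ifit2*, *Ifi44*, *Samd9l* and *Lgals3bp*, and *Zbp1*, *Dhx58* and *Parp9* had no window in the table.

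Values are normalized counts, reads per gene divided by a size factor for each tumor, and differences are in log2(normalized count + 1). The tumors held 32924414 to 49099168 reads on genes, and the least abundant member, *Mx1*, still had 43.2 normalized counts in its lowest tumor. *Pbrm1* itself fell from 9012 ± 956 (SD, n = 5) in control tumors to 2751 ± 213 (n = 5) in clone 4 and 2838 ± 210.3 (n = 5) in clone 18, with no overlap. Tumor 10 (clone 4) and tumor 13 (clone 18) lay farthest from the mean of their own group over all tested genes (Euclidean distances of 77.6 and 73.8, against 48.2 to 65.4 for the other 13 tumors). Tumor 13 had the fewest reads and tumor 10 the highest summed level of fibroblast marker genes, 128641 normalized counts against 10880.4 to 82618.5 in the others. Counts below are therefore also given without these 2 tumors, a choice made after the data were seen. Genes of chromosome 16 were lower as a whole in the knockout tumors, with a median log2 difference of -0.20 against -0.11 to 0.060 for the other 19 chromosomes, and 6 members lie there.

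The knockout tumors as a group, 10 against 5 controls, did not show a shared shift of the interferon-stimulated genes. *Ifit3*, *Zbp1*, *Ifi44*, *Parp9* and *Ifit2* fell and *Dhx58*, *Ifitm3* and *Samd9l* rose, which makes 8 of 40 members (20%) past an adjusted p of 0.05, against 22.1% of the 18250 genes tested (limma, Benjamini-Hochberg over all genes). By direction, 5 members (12.5%) were lower against 12.9% of all genes, and 3 (7.5%) were higher against 9.23%. The member differences had a median of -0.0059 log2, with 20 below and 20 above 0, beside -0.019 for all genes. On the recovered reads, edgeR called 7 members (22.5% of all genes) and DESeq2 11 (25.8% of all genes). Without tumors 10 and 13, 10 members passed, 5 lower and 5 higher, against 22.8% of all genes.

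The members that did not pass the test were bounded by their intervals. Of these 32 genes, 22 had a 95% interval within 0.5 log2 of 0 and 31 within 1. The 10 with a bound beyond 0.5 were *Ifit1*, *Oas2*, *Oasl2*, *Mx1*, *Mx2*, *Rsad2*, *Isg20*, *Rtp4*, *Ifi27l2a* and *Epsti1*, and the widest bound, of *Mx1*, reached -1.23. The interval of *Irf7*, the transcription factor that amplifies the response, ran from -0.46 to 0.37.

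**Figure D1:**
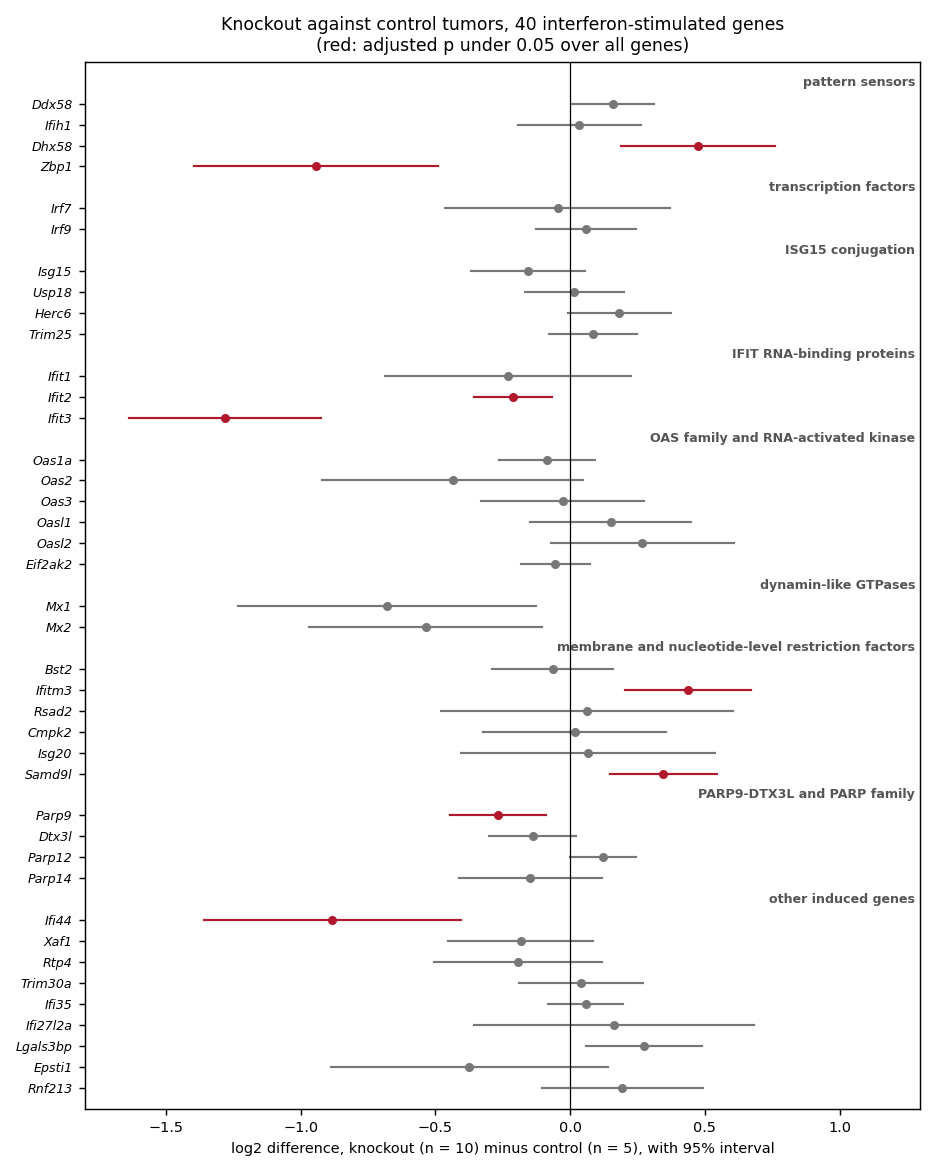
Log2 difference of the 40 interferon-stimulated genes between the 10 *Pbrm1* knockout and the 5 control tumors (x axis, log2 of normalized count + 1), grouped by role, with points for the estimate and lines for its 95% interval. The 8 genes in red passed an adjusted p of 0.05 over all genes. They lie on both sides of 0, from -1.28 for *Ifit3* to 0.47 for *Dhx58*, and 35 of the 40 estimates lie within 0.5 of 0.

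IFIT proteins bind viral RNA ends and stall translation, and their genes sit side by side on chromosome 19. *Ifit3* (chromosome 19, 34583531 to 34588731, plus strand, mm10) had the lowest adjusted p of all members. Its normalized counts were 556, 528, 446, 555 and 561 in control tumors 1 to 5, 197, 173, 182, 196 and 282 in clone 4 tumors 6 to 10, and 267, 249.8, 127, 274 and 284 in clone 18 tumors 11 to 15. All 10 knockout tumors lay below all 5 controls, the only member of which this was true in the pooled comparison, where 4.87% of all genes had all knockout tumors below every control and 3.11% above. The log2 difference was -1.28 ± 0.17 (SE, adjusted p = 3.9e-05), a ratio of 0.41, and the exact two-sided permutation test over tumors gave p = 0.000333, its smallest possible value. It was -1.38 (adjusted p = 1.0e-04) in clone 4 and -1.19 (adjusted p = 3.0e-04) in clone 18.

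*Ifit2*, whose product forms complexes with IFIT3, differed far less. Control tumors held 2856, 3013, 2679.9, 2899 and 2737 normalized counts, clone 4 tumors 2593, 2319, 2459.9, 2582 and 2203, and clone 18 tumors 2682, 2559, 2101, 2206 and 2878. The clone 4 tumors all lay below the controls, whereas 2 clone 18 tumors lay within the control range. The log2 difference of -0.21 ± 0.069 (SE, adjusted p = 0.035) lost its call without the trend term of limma (adjusted p = 0.055), in edgeR (adjusted p = 0.056) and with each chromosome centred (adjusted p = 0.079).

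*Ifit1*, which recognizes the cap of foreign RNA, did not pass the test, at -0.23 (adjusted p = 0.5). It held 326 to 569 normalized counts in controls, 234 to 482 in clone 4 and 312 to 628 in clone 18, with overlap of all groups, and the differences were -0.53 (adjusted p = 0.091) in clone 4 and 0.073 (adjusted p = 0.84) in clone 18. The near-copy *Ifit3b* fell by 1.04 log2 (adjusted p = 0.012), with 165 ± 44.7 normalized counts (SD, n = 5) in controls, 62.5 ± 25.5 (n = 5) in clone 4 and 103 ± 16.6 (n = 5) in clone 18. Reads that fit both *Ifit3* and *Ifit3b* may have been split or dropped in counting, so their separate levels are uncertain. *Ifit1bl1*, a further member of the cluster, was at -0.95 (adjusted p = 0.054) and *Ifit1bl2* at -0.099 (adjusted p = 0.82).

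Among the sensors, *Zbp1* fell and *Dhx58* rose. ZBP1 binds Z-form nucleic acid and can start necroptosis. *Zbp1* (chromosome 2, 173206612 to 173218923, minus strand) held 1070.0, 553, 532, 741 and 682 normalized counts in the controls, 261, 292, 224, 268 and 506 in clone 4, and 346, 469, 374, 448 and 579 in clone 18. Tumor 1 was the highest control, and 9 of 10 knockout tumors lay below every control, with tumor 15 inside the control range. The log2 difference was -0.94 ± 0.22 (SE, adjusted p = 0.0045), -1.22 (adjusted p = 7.9e-04) in clone 4 and -0.67 (adjusted p = 0.032) in clone 18. The clone 18 call was lost without tumor 1, 4, 5, 11, 13 or 14 (adjusted p of at most 0.094) and without the trend term of limma (adjusted p = 0.055).

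*Dhx58* (chromosome 11, 100694884 to 100704271, minus strand) encodes LGP2, the regulator of the RNA sensors RIG-I and MDA5. Controls held 718, 591, 579, 894 and 690.4 normalized counts, clone 4 tumors 904, 761, 842, 888 and 1156, and clone 18 tumors 1068, 1091, 688, 1007 and 1291. The groups overlapped, with 6 of 10 knockout tumors above every control. The log2 difference was 0.47 ± 0.14 (SE, adjusted p = 0.018), and it lost its call without control tumor 2 or 3 (adjusted p of at most 0.060). An antisense gene, *Dhx58os*, overlaps *Dhx58*, and the sources used here do not give the strand setting of the counting. RIG-I itself, listed as *Ddx58*, was at 0.16 (adjusted p = 0.14) and MDA5, listed as *Ifih1*, at 0.034 (adjusted p = 0.87).

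The transcription factors did not pass the test. *Irf7* was at -0.047 (adjusted p = 0.9) and *Irf9*, the DNA-binding part of ISGF3, at 0.06 (adjusted p = 0.69). *Irf7* held 1355 to 1886 normalized counts in controls, 954 to 2266 in clone 4 and 1305 to 2557 in clone 18, and its sign turned in edgeR (0.033) and DESeq2 (0.022). The ISG15 conjugation genes did not pass either. *Isg15*, the ubiquitin-like modifier, held 2040.2, 2414, 1934, 3009.7 and 1915 normalized counts in controls, 1614, 1886, 1941, 1978 and 2246 in clone 4, and 2249, 1919, 1926, 2057 and 2269 in clone 18. Tumor 4 was the highest of the 15 and the groups overlapped, with a log2 difference of -0.16 ± 0.1 (SE, adjusted p = 0.29). *Usp18*, which removes ISG15 and also blocks the receptor, was at 0.015 (adjusted p = 0.93), the ligase gene *Herc6* at 0.18 (adjusted p = 0.17) and *Trim25* at 0.084 (adjusted p = 0.49).

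None of the 5 genes of the OAS family nor *Eif2ak2* passed the test in limma, against 22.1% of all genes. In edgeR (22.5% of all genes) and DESeq2 (25.8%), and at an unadjusted p under 0.05 in limma, the count was also 0. With so few genes, a count of 0 does not set them apart from these shares. The catalytically active OAS enzymes make the 2-5A messenger that activates RNase L. *Oas2* was at -0.44 (adjusted p = 0.2), *Oasl2* at 0.27 (adjusted p = 0.26), *Oasl1* at 0.15 (adjusted p = 0.5), *Oas1a* at -0.085 (adjusted p = 0.52) and *Oas3* at -0.027 (adjusted p = 0.92). *Eif2ak2*, the gene of the kinase PKR, held 3407 to 4373 normalized counts, with a difference of -0.054 ± 0.061 (SE, adjusted p = 0.58). Its coefficient of variation was the lowest of the members in controls (3.4%), but not in clone 4 (7.8%, *Ifih1* 3.8%) or clone 18 (9.9%, *Ifi35* 5.3%). The near-copy *Oas1c* rose, at 0.36 (adjusted p = 0.0041), while *Oas1b* was at 0.081 (adjusted p = 0.62) and *Oas1g* at -0.16 (adjusted p = 0.12). Reads shared among the *Oas1* copies make their separate levels uncertain.

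**Figure D2:**
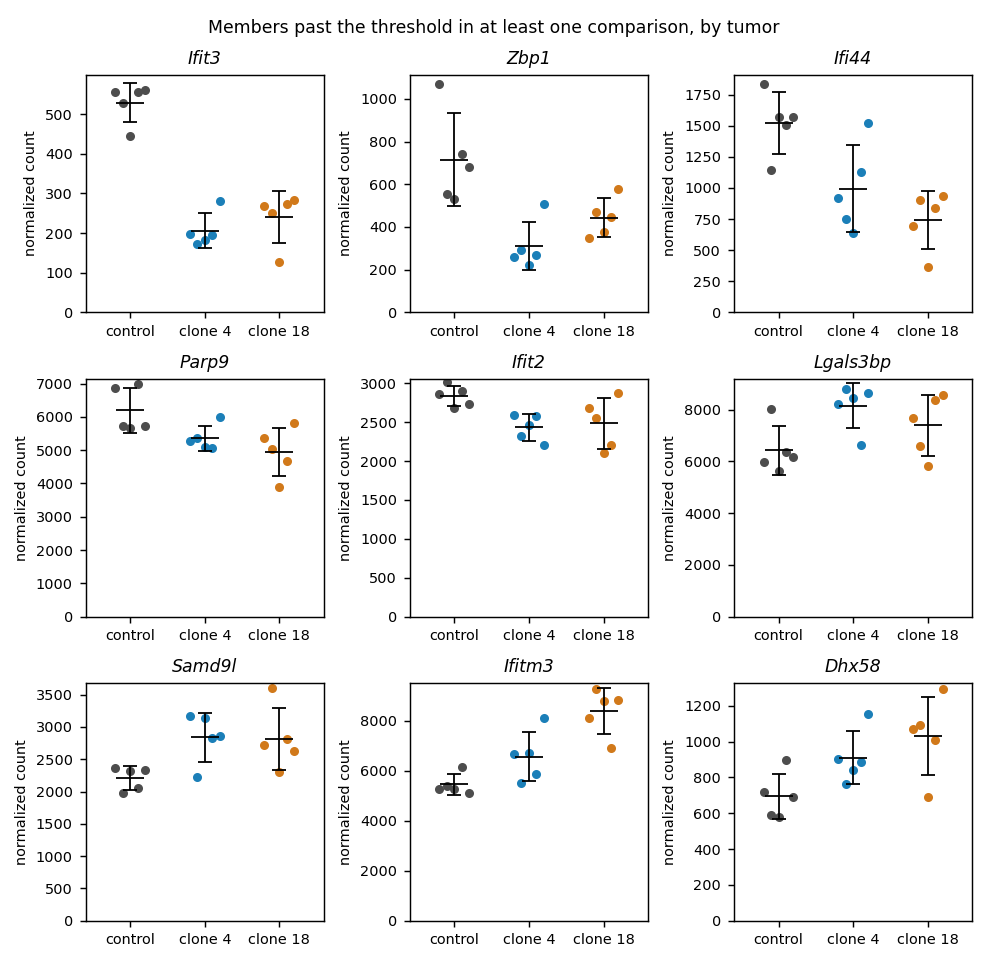
Normalized counts (y axis, from 0) of the 9 members past an adjusted p of 0.05 in at least 1 comparison, by group, with a point for each tumor, a bar for the mean and whiskers for the SD (n = 5 per group). *Ifit3* separates the 10 knockout tumors (127 to 284) from the 5 controls (446 to 561), and the other panels overlap in at least 1 clone.

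All 6 members on chromosome 16 had estimates below 0. MX proteins are dynamin-like GTPases that trap viral nucleocapsids, and many laboratory strains carry a defective *Mx1*. *Mx1* held 122 to 257 normalized counts in controls, 93.5 to 165 in clone 4 and 43.2 to 174 in clone 18, at -0.68 (adjusted p = 0.074). *Mx2* held 179.9 to 365, 122 to 251 and 131 to 213, at -0.54 (adjusted p = 0.072). With all tumors, both missed the threshold in limma and edgeR, and both passed it in DESeq2 (adjusted p = 0.028 each). In limma, *Mx1* passed without tumor 4 or 13 (adjusted p = 0.044 and 0.049) and without tumors 10 and 13 together (adjusted p = 0.039). *Mx2* passed in limma without tumor 1, 3 or 10 (adjusted p of 0.044 to 0.046). With chromosomes centred, *Mx1* stayed at -0.47 (adjusted p = 0.22) and *Mx2* at -0.33 (adjusted p = 0.30).

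*Parp9* (chromosome 16, 35938470 to 35972605, plus strand) encodes the ADP-ribosyltransferase partner of the ubiquitin ligase DTX3L, and the 2 genes overlap head to head. Controls held 6871, 5739, 5672, 6994 and 5717 normalized counts, clone 4 tumors 5289, 5363, 5083, 5053 and 5986, and clone 18 tumors 5357, 5035, 3906, 4680.0 and 5817. The 2 highest controls lay above all knockout tumors, and 2 knockout tumors lay inside the control range. The log2 difference of -0.27 ± 0.085 (SE, adjusted p = 0.032) became -0.061 (adjusted p = 0.63) once the median of each chromosome was taken out. *Dtx3l* was at -0.14 (adjusted p = 0.22), *Parp14* at -0.15 (adjusted p = 0.45) and *Rtp4* at -0.19 (adjusted p = 0.39), and with chromosomes centred these 3 turned to 0.068, 0.059 and 0.012. *Parp12*, on chromosome 6, was at 0.12 (adjusted p = 0.15).

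*Ifitm3* was the most abundant member per kilobase of exon and rose in the pooled comparison and in clone 18. IFITM3 sits in endosomal membranes and blocks fusion of incoming virus. *Ifitm3* (chromosome 7, 141009586 to 141010770, minus strand) held 5289.6, 5414, 5294, 6166 and 5132 normalized counts in controls, 6670.2, 5522, 6696, 5876 and 8101 in clone 4, and 8126, 9269, 8804, 6923 and 8834 in clone 18. Every clone 18 tumor lay above every control, whereas 2 clone 4 tumors lay within the control range. The log2 difference was 0.44 ± 0.11 (SE, adjusted p = 0.0087) in the pooled comparison, 0.26 (adjusted p = 0.079) in clone 4 and 0.62 (adjusted p = 2.2e-04) in clone 18. The related *Ifitm2* was at -0.17 (adjusted p = 0.35) and *Ifitm1* at -0.12 (adjusted p = 0.84).

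*Samd9l* (chromosome 6, 3372257 to 3399572, minus strand), whose product restricts translation and growth, rose in the pooled comparison and in each clone. Controls held 2367, 1974, 2311, 2061 and 2332 normalized counts, clone 4 tumors 3174, 2219, 3136, 2822 and 2853, and clone 18 tumors 2728, 3600.1, 2296, 2813 and 2626. Of the 10 knockout tumors, 8 lay above every control, and tumors 7 and 13 did not. The difference was 0.35 ± 0.095 (SE, adjusted p = 0.014), 0.36 (adjusted p = 0.035) in clone 4 and 0.34 (adjusted p = 0.035) in clone 18. The clone 4 call was lost without tumor 2, 4, 6, 8, 9 or 10 (adjusted p of at most 0.092), the clone 18 call without tumor 2, 4, 11, 12 or 14 (at most 0.092), and both without the trend term of limma (adjusted p = 0.066 and 0.062) and with chromosomes centred (adjusted p = 0.098 and 0.076). *Bst2*, the tetherin gene, was at -0.065 (adjusted p = 0.72), *Rsad2*, the viperin gene, at 0.063 (adjusted p = 0.9), its neighbor *Cmpk2* at 0.017 (adjusted p = 0.96) and the exonuclease gene *Isg20* at 0.067 (adjusted p = 0.87).

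Among the other induced genes *Ifi44* fell. *Ifi44* (chromosome 3, 151730922 to 151749960, minus strand) held 1837, 1143, 1571, 1504 and 1569 normalized counts in controls, 920.0, 751, 637, 1129 and 1522 in clone 4, and 689.9, 901, 361, 835 and 936 in clone 18. The clone 18 tumors all lay below the controls, and tumor 10 of clone 4 alone reached the control range. The difference was -0.88 ± 0.23 (SE, adjusted p = 0.0096), -0.67 (adjusted p = 0.073) in clone 4 and -1.09 (adjusted p = 0.0038) in clone 18. Its relative *Ifi44l* was at -0.26 (adjusted p = 0.57).

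*Lgals3bp*, the gene of a secreted galectin-binding glycoprotein, passed the threshold only in clone 4 among the 4 comparisons. Controls held 5971, 8036, 5612, 6349 and 6185 normalized counts, clone 4 tumors 8207, 8801, 8447, 6648 and 8656, and clone 18 tumors 7661, 6579, 5824, 8388 and 8573. Control tumor 2 lay within the range of clone 4. The difference was 0.35 (adjusted p = 0.047) in clone 4, 0.20 (adjusted p = 0.23) in clone 18 and 0.27 (adjusted p = 0.065) in the pooled comparison. The clone 4 call was lost without tumor 1, 3, 4, 5, 6, 7, 8, 10 or 11 (adjusted p of at most 0.11), without tumors 10 and 13 together (adjusted p = 0.056) and without the trend term of limma (adjusted p = 0.084). A pooled call was gained in DESeq2 (adjusted p = 0.043), with quantile scaling (adjusted p = 0.019), without tumors 10 and 13 together (adjusted p = 0.029) and without tumor 2, 9, 12 or 13 (adjusted p of 0.018 to 0.049). The remaining members *Xaf1*, *Trim30a*, *Ifi35*, *Ifi27l2a*, *Epsti1* and *Rnf213* lay between -0.37 for *Epsti1* and 0.19 for *Rnf213* and did not pass. *Ifi27*, related to *Ifi27l2a*, rose, at 0.24 (adjusted p = 0.036).

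Each clone was then compared with the controls on its own, with the same 5 control tumors in both comparisons. In clone 4, 4 of 40 members passed (10.0%, against 16.8% of all genes), *Zbp1* and *Ifit3* lower and *Samd9l* and *Lgals3bp* higher, with a median of -0.082. In clone 18, 7 passed (17.5%, against 24.7% of all genes), *Zbp1*, *Ifit3*, *Ifi44* and *Parp9* lower and *Dhx58*, *Ifitm3* and *Samd9l* higher, with a median of 0.035. The lower and higher members were 2 and 2 in clone 4, against 10.0% and 6.79% of all genes, and 4 and 3 in clone 18, against 14.2% and 10.4%. In edgeR 4 passed in clone 4 (16.9% of all genes) and 9 in clone 18 (24.9%), and in DESeq2 6 (20.1%) and 9 (27.4%). In clone 4, all tumors lay below all controls for 3 members (*Zbp1*, *Ifit2* and *Ifit3*, against 8.20% of all genes) and above them for 0, against 5.80%. In clone 18 they lay below for *Ifit3* and *Ifi44* and above for *Ifitm3*, against 9.82% and 7.24% of all genes.

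These counts were not stable to the tumors that stood apart. Without tumor 13 alone, 12 members passed in the pooled comparison (against 22.2% of all genes), 8 in clone 4 (18.2%) and 10 in clone 18 (22.2%). Without tumor 10 alone, 8, 6 and 7 passed, against 22.9%, 17.0% and 25.2% of all genes. Without tumors 10 and 13, 11 members passed in clone 4, 10 of them lower, against 18.7% of all genes, and 12 passed in clone 18, 8 of them higher, against 23.1%. In clone 4 the 10 lower members were then *Ifi44*, *Ifit1*, *Ifit3*, *Irf7*, *Mx1*, *Mx2*, *Oas2*, *Parp9*, *Xaf1* and *Zbp1*, with *Irf7* at -0.50 (adjusted p = 0.012) and *Ifit1* at -0.69 (adjusted p = 0.0087). In clone 18 the 8 higher members were *Cmpk2*, *Ddx58*, *Dhx58*, *Herc6*, *Ifih1*, *Ifitm3*, *Oasl2* and *Samd9l*, with *Ifih1* at 0.20 (adjusted p = 0.041). Tumor 10 was the highest of clone 4 for 27 members and tumor 13 the lowest of clone 18 for 32, so leaving them out lowers clone 4 and raises clone 18 by construction, and these counts only describe the remaining 13 tumors.

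Clone 18 and clone 4 were compared directly. With all tumors, 1 of 40 members (2.5%, against 4.62% of all genes) passed. It was *Ifitm3*, higher in clone 18 by 0.36 ± 0.097 (SE, adjusted p = 0.043), and 4 of 5 clone 18 tumors lay above every clone 4 tumor. By direction 2.49% of all genes were higher and 2.13% lower, edgeR called 1 member (4.51% of all genes) and DESeq2 3 (7.91%). That call held when tumor 4, 10 or 14 was left out and was lost when any of the other 12 was, and it was also lost without the trend term of limma (adjusted p = 0.086) and with chromosomes centred (adjusted p = 0.067). Leaving out tumors 10 and 13, high in clone 4 and low in clone 18 for most members, moves this difference upward by construction, and the values that follow describe the remaining tumors. Without them, 8 of 40 members passed, all higher in clone 18, against 3.96% of all genes (419 of 18250 genes higher and 303 lower). They were *Rsad2* at 0.96 (adjusted p = 0.027), *Ifit1* at 0.92 (adjusted p = 0.0074), *Irf7* at 0.86 (adjusted p = 0.0017), *Zbp1* at 0.80 (adjusted p = 0.038), *Cmpk2* at 0.64 (adjusted p = 0.011), *Ifit3* at 0.52 (adjusted p = 0.011), *Xaf1* at 0.43 (adjusted p = 0.031) and *Ifitm3* at 0.42 (adjusted p = 0.022). With all 15 tumors the same comparison gave 0.57 (adjusted p = 0.27) for *Rsad2* and 0.53 (adjusted p = 0.15) for *Irf7*.

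The members varied between tumors of a group. The median coefficient of variation of the members was 14.2% in controls, 15.4% in clone 4 and 19.1% in clone 18. Tumor 13 was the lowest of the 15 for 18 of 40 members and the lowest of its group for 32. It lay below every control for 25 members, within the control range for 13 and above every control for *Ifitm3* (8804 normalized counts) and *Ifi35*. Tumor 10 was the highest of its group for 27 members, and tumor 15 of its group for 21. In mean z-score over the members, tumor 13 stood at -1.29 and the others between -0.46 and 0.77.

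**Figure D3:**
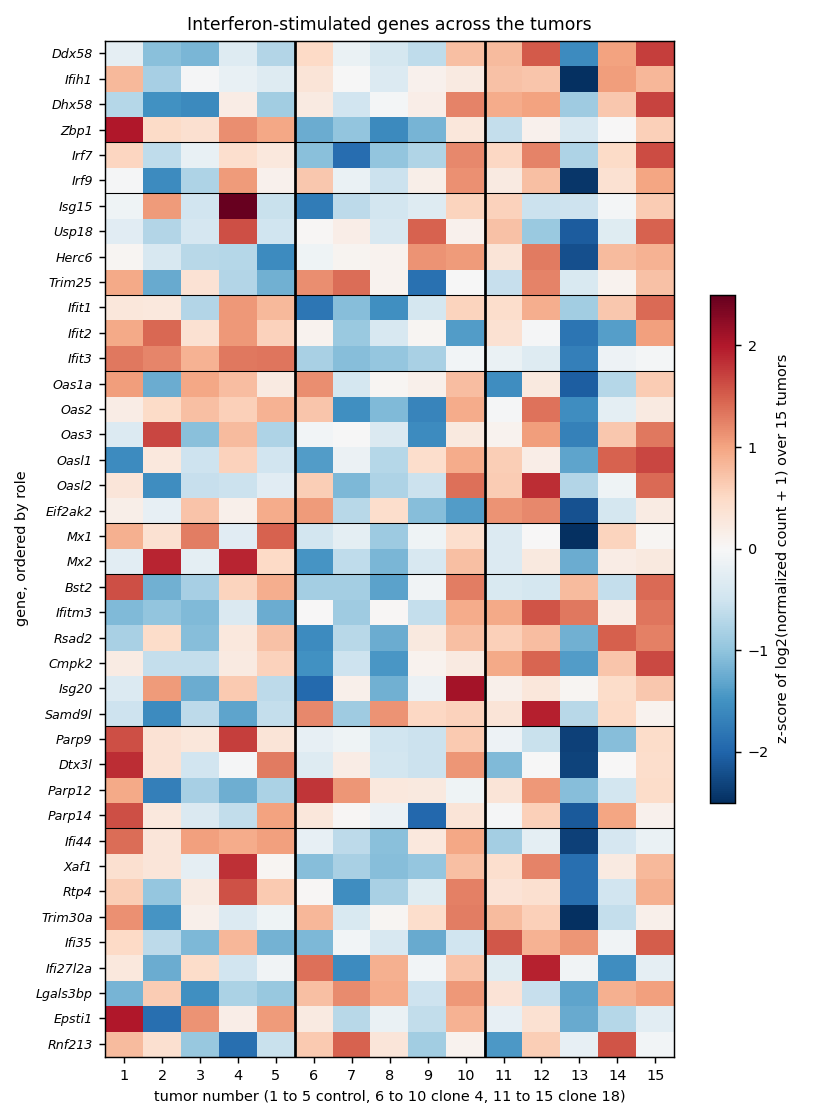
Z-scores of log2(normalized count + 1) over the 15 tumors (color, limits at -2.5 and 2.5) for the 40 members (rows, ordered by role) and the tumors (columns, black lines between the 3 groups). The column of tumor 13 is blue in most rows, and tumors 10, 12 and 15 are mostly red.

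**Figure D4:**
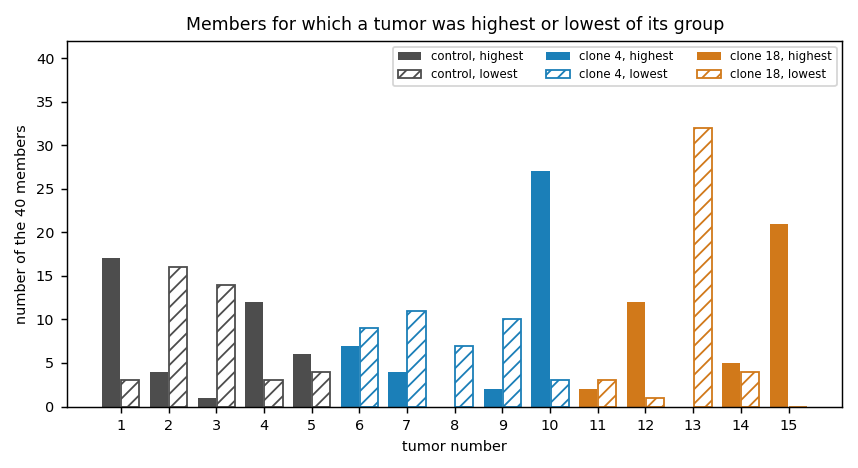
Number of the 40 members (y axis) for which each tumor (x axis) was the highest (solid bars) or the lowest (hatched bars) of its group of 5. Tumor 13 was lowest for 32 members and tumor 10 highest for 27.

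Some markers of other cell types also changed in the pooled comparison. Called lower in the knockout tumors were 4 of 8 macrophage genes, 2 of 8 T cell genes, 2 of 4 pan-leukocyte genes, 2 of 6 neutrophil genes, 1 of 5 conventional dendritic cell genes and 1 of 3 B cell genes, against 12.9% of all genes, and none of these lists had a gene called higher, against 9.23%. The macrophage genes summed to 73296 to 97105 normalized counts in controls, 58053 to 72744 in clone 4 and 53355 to 71488 in clone 18. The T cell genes summed to 446 to 1374, 474 to 745 and 466 to 583. Their median log2 difference was -1.25, and 6 of 8 had an unadjusted p under 0.05 in limma. In edgeR and in DESeq2 4 of the 8 were called (22.5% and 25.8% of all genes). The 3 B cell genes, 1 of them called lower, had a median log2 difference of 0.12. They summed to 604 to 768.3 in controls, 697.5 to 1068.4 in clone 4 and 553.1 to 765.7 in clone 18. Of the 5 endothelial and 5 fibroblast genes, 0 were called in limma, edgeR or DESeq2, with a median of 0.15 in each list. None of the marker genes was at 0 in every tumor. For plasmacytoid dendritic cells, a main source of type I interferon, 0 of 6 markers passed in limma, edgeR or DESeq2 (22.1%, 22.5% and 25.8% of all genes). None had an unadjusted p under 0.05 in limma. Their median log2 difference was -0.41, beside -0.40 for the macrophage genes, and their sums overlapped between all groups. The counts were also 0 for the 4 NK cell genes, at a median of -0.99, of which 3 had a mean under 10 normalized counts. Counts of 0 among so few genes do not show that a list was unchanged. The 4 skeletal muscle genes had a median log2 difference of 2.16. They summed to 489.3 to 1426.7 normalized counts in tumors 9, 10, 11, 14 and 15 and to 50.8 to 145 in the other 10, with 0 called in limma (1 at an unadjusted p under 0.05) and 3 in both edgeR and DESeq2. The renal epithelial genes, which mark the Renca cells, summed to 107887 to 128975 in controls and 90885.5 to 121015 in the clones, with 1 of 6 lower and 1 higher. The part of these cells in the member differences was not tested.

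Per kilobase of exon, mean levels over the 15 tumors ranged from 10041 normalized counts for *Ifitm3* to 39.2 for *Mx1*. *Isg15* (2769), *Bst2* (2598) and *Lgals3bp* (2574) followed *Ifitm3*. *Ifit3* had 303 per kilobase in controls, above *Ifit1* at 174, and 118 and 138 in clones 4 and 18, where *Ifit1* stood at 122 and 184. *Ifit2* was the most abundant IFIT gene in every group, at 722, 619 and 633 per kilobase in controls, clone 4 and clone 18.

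A list of receptor, signaling, inhibitor and sensing genes of the interferon pathway was read beside the members. Of its 26 genes in the table, 9 fell and 3 rose in the pooled comparison, with a median of -0.15. This makes 46.2% called, against 22.1% of all genes (12.9% lower and 9.23% higher). Those that fell include the inhibitor genes *Ptpn6* and *Pias1* and the nucleotide hydrolase gene *Samhd1*, so the count is not one of sensors and signal carriers alone. The interferon genes themselves were not analysed here. Both subunits of the receptor fell. *Ifnar2*, the high-affinity subunit, held 2503, 2249, 2509, 2715 and 2551 normalized counts in controls, 1664, 1789, 1701, 1748 and 1987 in clone 4, and 1802, 1899.7, 1665, 1688 and 1954 in clone 18. No knockout tumor reached the controls, and the difference was -0.49 ± 0.058 (SE, adjusted p = 1.7e-05).

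*Ifnar1* held 5854 to 6500.0 normalized counts in controls, 4803 to 5538 in clone 4 and 4347 to 5250.5 in clone 18, again without overlap, at -0.28 ± 0.06 (SE, adjusted p = 0.0027). Both genes lie on chromosome 16. With chromosomes centred, *Ifnar2* kept a difference of -0.28 (adjusted p = 0.0039) and *Ifnar1* lost its call at -0.076 (adjusted p = 0.26). *Il10rb*, a subunit of the type III interferon receptor on the same chromosome, was at -0.10 (adjusted p = 0.28), and its partner *Ifnlr1* at 0.078 (adjusted p = 0.52).

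*Stat2*, a part of ISGF3, held 3496 to 5025 normalized counts in controls, 3999 to 4583 in clone 4 and 4202 to 6289.5 in clone 18. Its pooled difference was 0.27 (adjusted p = 0.11), with 0.087 (adjusted p = 0.65) in clone 4 and 0.45 (adjusted p = 0.0049) in clone 18. The receptor kinases *Jak1* and *Tyk2* were at 0.051 (adjusted p = 0.62) and 0.14 (adjusted p = 0.28). Of the inhibitors, *Ptpn6*, a phosphatase gene of blood cells, was at -0.59 (adjusted p = 0.0011), *Pias1* at -0.22 (adjusted p = 0.013), *Socs1* at -0.49 (adjusted p = 0.24) and *Socs3* at -0.13 (adjusted p = 0.55).

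*Ikbke*, the gene of the kinase IKKε that phosphorylates IRF3 and IRF7, had the largest change of the pathway genes. Controls held 917, 713, 900.4, 778 and 778 normalized counts, clone 4 tumors 373, 331, 350.1, 234 and 417, and clone 18 tumors 222, 328, 281, 267 and 220.5. The groups did not overlap, and the difference was -1.46 ± 0.15 (SE, adjusted p = 1.9e-06), with an exact permutation p of 0.000333. Its partner kinase *Tbk1* rose, at 0.18 (adjusted p = 0.018). The endosomal RNA sensor *Tlr7* fell, at -0.86 (adjusted p = 4.1e-04), and *Tlr3* rose, at 0.22 (adjusted p = 0.042). The adaptors *Mavs* and *Tmem173*, the STING gene, were at -0.17 (adjusted p = 0.042) and -0.21 (adjusted p = 0.014), and *Myd88* was at 0.22 (adjusted p = 0.019). *Samhd1*, a nucleotide hydrolase gene, was at -0.31 (adjusted p = 0.013).

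**Figure D5:**
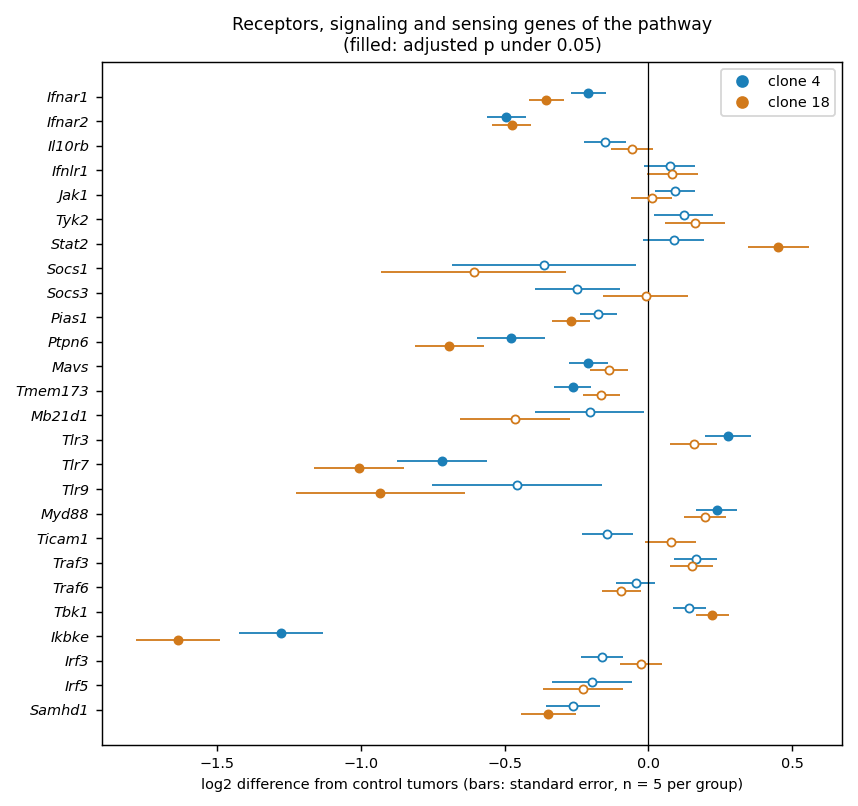
Log2 difference from the 5 control tumors (x axis) of the 26 receptor, signaling, inhibitor and sensing genes, for clone 4 (blue) and clone 18 (orange). Bars give the standard error (n = 5 per group) and filled points an adjusted p under 0.05. *Ikbke* lies lowest in both clones, at -1.28 and -1.64, and *Ifnar2* lies at -0.50 and -0.48.

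A wider list of 46 other interferon-stimulated genes was read for the same comparison, of which 4 also stand in the signaling list or among the interferon-inducible GTPases. In it 8 fell and 2 rose (21.7%, against 22.1% of all genes), with a median of -0.059. Those that fell included *Ube2l6*, the ISG15-conjugating enzyme, at -0.79 (adjusted p = 0.0027), *Phf11d* at -0.82 (adjusted p = 0.0023), *Ifi47*, a GTPase gene, at -0.70 (adjusted p = 0.0084) and *Apol9b* at -0.66 (adjusted p = 0.0097). *Zc3hav1*, the zinc finger antiviral protein gene, was at -0.22 (adjusted p = 0.017) and *Psmb9*, an immunoproteasome subunit, at -0.52 (adjusted p = 0.018). The *Psmb9* call was lost without control tumor 1, at -0.39 (adjusted p = 0.072). *Tdrd7* and *Trim34a* rose, at 0.24 (adjusted p = 0.0063) and 0.36 (adjusted p = 0.013). Of 18 interferon-inducible GTPases, a family led by interferon gamma, 7 fell and 0 rose (38.9%, against 12.9% of all genes lower and 9.23% higher), with a median of -0.60. In mean z-score over these GTPases, control tumor 1 stood apart at 2.36. The other controls lay between -0.43 and 0.80 and overlapped the knockout tumors, at -1.29 to 0.29.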

How the data were processed

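RNA of 15 bulk Renca tumors was measured, 5 in each of 3 groups. The deposited values are a signal per gene, normalized counts that the authors made by aligning reads to mm10 with TopHat2, counting with HTSeq and dividing by DESeq size factors, rounded to 0.1. Tool versions, annotation and strand setting are not given in the sources used here. Undoing the size factors gave whole reads for 100% of the values up to 8000 (within 0.1). Reads on genes were 32924414 to 49099168 per tumor (median 40860659). Precision is limited by 5 tumors a group, and p-values measure the spread between these tumors. Tumors within a group differed by more than sampling noise (30 pairs, chi-square per degree of freedom of 17.7 or more).

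Of 18279 genes, 29 were at 0 in every tumor and 18250 were tested on log2(normalized count + 1) with limma 3.58.1 with trend (R 4.3.3), the 10 knockout against the 5 control tumors and, in a second fit, the 3 groups with each other. P-values were adjusted by Benjamini-Hochberg over all genes at a threshold of 0.05, and a gene below it is called. Exact permutation tests over tumors were two-sided. The script was tested on simulated data. The members and gene lists were chosen with earlier results of these data known. Genes were named by rule: members called in any comparison (values in every tumor), members on chromosome 16, receptors, up to 8 called genes of each other list with the lowest p, and copies of members. Other genes, among them *Isg15* and *Stat2*, were named for their role. A gene of the signaling list is not reported here. Alternatives were other pseudocounts (0.1 and 5), a mean of at least 10, upper quartile and quantile scaling, no trend, centring by chromosome, each tumor left out, and count models on the whole reads (edgeR 4.0.16, DESeq2 1.42.0). Leaving out tumors 10 and 13 together was added after the data were seen. Gene positions are from GENCODE M21 and promoters from RefSeq, both on GRCm38, and 30 of 40 members matched a promoter. Of the members, 15 overlap another gene. BALB/c reads were aligned to a C57BL/6 reference.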

Additional observations from a re-analysis of the deposited data

Results flagged for a closer look

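Over 120 sets of 5 tumors (40 members in 3 groups), 14 had a highest or lowest tumor whose gap to the next was above 0.71 of the range, Dixon's limit for 5 values, where chance gives about 6. Members share their tumors, so these 14 are not independent. Tumor 10 of clone 4 was the high value for *Zbp1* (506 normalized counts, against 224 to 292 in the other 4 tumors), *Irf7* (2266, against 954 to 1311), *Ifit3* (282, against 173 to 197) and *Xaf1* (889, against 639 to 671). Tumor 13 of clone 18 was the low value for *Ifih1* (1253, against 2170.4 to 2281), *Irf9* (1611, against 2194 to 2397) and *Ifit3* (127, against 249.8 to 284).

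Control tumor 4 was the high value for *Usp18* (2374, against 1825 to 1918), *Ifitm3* (6166, against 5132 to 5414) and *Xaf1* (1079, against 746 to 833). Tumor 9 of clone 4 was high for *Usp18* (2338, against 1893 to 2021) and low for *Parp14* (2202, against 3054 to 3321) and *Lgals3bp* (6648, against 8207 to 8801). Tumor 12 of clone 18 was high for *Ifi27l2a* (1836, against 543 to 908). The clones differed from each other in *Ifitm3*, by 0.36 log2 (adjusted p = 0.043 in limma), with 4 of 5 clone 18 tumors above every clone 4 tumor.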

How the results depend on the processing

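The deposited table holds 1 value per tumor, and each difference rests on 5 tumors a group, each group 1 cell line. Numbers of all genes called, which also moved, are given in parentheses (18250 tested, fewer in DESeq2). In the pooled comparison 6 to 11 members passed under the alternatives that kept the planned tumors or left out tumors 10 and 13. Over all genes these gave 3739 (no trend term) to 4615 calls (DESeq2). With 1 tumor left out 6 to 12 members passed (3219 to 4182 genes), and 12 without tumor 13 (4060 genes). In clone 4 the count of 4 (3071 genes) became 2 without the trend term (2803 genes) and 11 without tumors 10 and 13 (3419 genes). With 1 tumor left out, it ran from 2 without tumor 6 (2462 genes) or 8 (2404 genes) to 8 without tumor 13 (3329 genes). In clone 18 the count of 7 (4499 genes) became 12 without tumors 10 and 13 (4211 genes) and 5 to 10 with 1 tumor left out (3786 to 4606 genes). Between the clones the count of 1 (844 genes) became 2 with upper quartile (882 genes) or quantile scaling (834 genes). It became 0 without the trend term (682 genes) or with chromosomes centred (799 genes), and 3 in DESeq2 (1359 genes). Without tumors 10 and 13 it was 8 (722 genes), and with 1 tumor left out 0 to 4 (632 to 878 genes). The cause was not tested. *Ifit3*, *Zbp1*, *Ifi44*, *Ifitm3* and *Samd9l* kept their pooled call under each alternative run. *Ifit2* lost it under 4 alternatives and without tumor 1, 2, 4, 5, 7, 10 or 14, and *Parp9* under 2 and without tumor 1, 4 or 14.

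Signs turned for members and 1 receptor gene, *Il10rb*, that were not called in the pooled comparison. *Irf7* was 0.033 in edgeR and 0.022 in DESeq2, *Oas3* 0.00978 with quantile scaling and 0.022 without tumors 10 and 13, *Isg20* -0.046 without these, and with chromosomes centred *Usp18* was -0.047, *Dtx3l* 0.068, *Parp14* 0.059, *Rtp4* 0.012 and *Il10rb* 0.10. With 1 tumor left out, the range was -0.0035 to 0.11 for *Ifih1*, -0.12 to 0.036 for *Irf7*, -0.012 to 0.083 for *Usp18*, -0.11 to 0.087 for *Oas3*, -0.14 to 0.0077 for *Bst2*, -0.065 to 0.17 for *Rsad2*, -0.039 to 0.071 for *Cmpk2*, -0.059 to 0.20 for *Isg20* and -0.030 to 0.11 for *Trim30a*. No paired analysis was possible because the replicate numbers only number the tumors within each group and the sources name no shared litter, day or batch.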
